A study of Xenopus laevis with 9 samples.

Results

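The late, high-pressure filtrate (T2) of *Xenopus laevis* egg extract was compared with the early, low-pressure filtrate (T1), gene by gene. The comparison used 6 of the 9 RNA-seq libraries, 3 of T1 and 3 of T2. Of 44478 genes in the count table, 20148 passed a filter on low counts and were tested. The unfiltered extract (input, 3 libraries) entered no contrast. It was kept in the filter on low counts and in the fit. With T1 and T2 alone, 16720 genes passed the filter. In the fit the input enters the estimate of the spread, and it varied less than T1 and T2. Its levels are given for reference. All 9 libraries are of egg extract, from 3 samples that the study calls biologically independent, with 3 replicates for each condition. The labels name no genotype, drug or age that separates them. Early filtrates were collected at low and late filtrates at high centrifugal force through a porous membrane. T1 and T2 thus differ in both the pressure and the stage of the elution, which cannot be told apart. Whether T1 and T2 are successive fractions of the same load of extract is not given in the sources used here.

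Egg extract is the nearly undiluted cytoplasm of crushed eggs, which holds the maternal mRNA, ribosomes, mitochondria and other organelles of the egg. Transcription is silent in the egg until the mid-blastula stage, so its RNA was made in the oocyte and is stored, translated or degraded from there. In a cytoplasm filtered through narrow pores, an RNA passes alone, in a ribonucleoprotein particle, on ribosomes or within a larger condensate or organelle, and the assay reads which RNAs have come through at each stage. *X. laevis* is an allotetraploid, and the suffixes .L and .S name the copies of a gene on the long and the short subgenome.

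Levels are given as CPM, the reads on a gene relative to the effective library size, which is the read total scaled by edgeR's trimmed mean of M-values (TMM). CPM describes the makeup of a library and not the amount of RNA, so less of one RNA and more of all others cannot be told apart. Differences are log2 fold changes, T2 minus T1, from edgeR's quasi-likelihood test, with Benjamini-Hochberg adjustment over all 20148 genes. Standard errors (SE) are approximate, taken from the fold change and the F statistic. The adjusted p-values below come from this test.

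The T1 libraries were the shallower and the more variable. Between 23509338 and 37265313 reads were counted on genes at T1, between 60330615 and 93451602 at T2 and between 65503682 and 90000652 in the input. The biological coefficient of variation, estimated within each condition, was 1.49 at T1, 1.06 at T2 and 0.577 in the input. T1 replicate 3 stood apart: it had the fewest reads, the lowest scaling factor (0.795 against 0.943 to 1.08 in the other filtrates), the highest share of unmapped reads (20.1% against 7.04 to 15.5%) and only 10502 genes at 1 CPM or more, where the other T1 libraries had 13567 and 14613 and the T2 libraries 16199 to 17241. For several lists the median without it is given, though in some of them leaving out another library moved the median more. As a check of the egg material, which cannot tell T1 from T2, a list of 15 egg and germ-line RNAs was read in every filtrate. Its summed level was 1907, 2427 and 1978 CPM at T1 and 1968, 1778 and 1827 CPM at T2. Single members came near 0: asz1.L had 1, 17 and 1 reads at T1, and it alone was at 0 in any T2 library, replicate 3. In T1 replicate 3 piwil2.L had 2 reads and rnf17.S had 5. A list of 8 blood and immune markers summed to 55.9 to 148 CPM at T1 and 139 to 198 CPM at T2. Almost all of it was ikzf4.S, a transcription factor whose RNA had 128 to 185 CPM at T2, while the defining leukocyte markers cd74.L, laptm5.S, itk.L and hcls1.S were at or near 0 in every T1 library and at 7.07 CPM or less at T2. In T1 replicate 1 alox5ap.S had 12.2 CPM and il17ra.S 11.03 CPM, and both had 1.89 CPM or less at T2. A list of 7 connective-tissue and epithelial markers summed to 74.7 to 207 CPM at T1 and 79.3 to 145 CPM at T2, mostly the keratins krt8.1.S and krt18.1.S, integrin itga5.S and annexin anxa2.L, and dcn.L and postn.S were at 0 in every T1 library.

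Most RNAs were spread widely around equal shares in the early and the late filtrate, with a long tail of RNAs that were nearly missing from T1. The median log2 fold change was 0.09, and 10636 genes (52.8%) were higher at T2. In the fit of T1 and T2 alone the median was -0.05, and 48.3% were higher. There were 10328 genes (51.3%) within 1 of 0 on the log2 scale. The upper tail was much the longer: 2924 genes (14.5%) had a log2 fold change over 5, and 288 (1.43%) one under -5. Of the 2924, 2459 had no more than 3 reads over all T1 libraries together, and their median level in the input was 1.51 CPM, against 15.8 CPM for all genes tested. The filter read all 9 libraries, so a gene could pass it through its reads in the input or at T2. A fitted fold change against so few reads depends on the prior count that the fit adds and is no measure of size. The T2 libraries lay all above the T1 libraries in 1214 of these 2924 genes (41.5%, against 13.2% of all genes tested). A larger share than among all genes follows in part from the picking, since both measures use the same libraries.

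**Figure D1:**
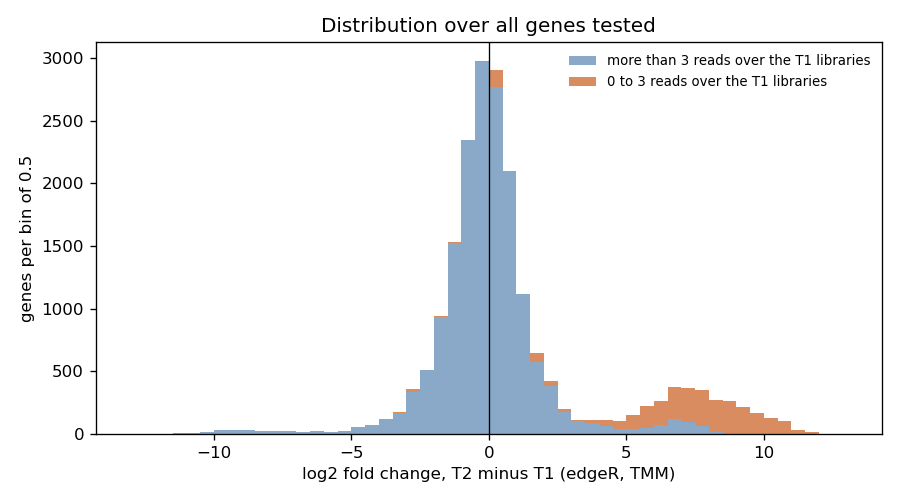
Number of genes (vertical axis) by log2 fold change, T2 minus T1 (horizontal axis), for the 20148 genes tested. Most genes lie within a few units of 0, and a second, smaller set of genes lies between 5 and 10, with no counterpart of that size on the negative side.

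After adjustment, 20 genes (0.0993% of those tested) differed between T2 and T1: 18 rose (0.0893%) and 2 fell (0.00993%). At an unadjusted p under 0.05 there were 2944 genes higher (14.6%) and 1634 lower at T2 (8.11%), together 22.7% of the genes tested. This lean depended on the fit. With edgeR on T1 and T2 alone, 1050 were higher and 1008 lower at that threshold, and with DESeq2 2889 and 2684. With limma's voom and sample weights it was 1497 and 1303, and with the replicate number as a block over all 9 libraries 2019 and 1253. All 3 T2 libraries lay above all 3 T1 libraries in 2663 genes (13.2%) and below them in 1558 (7.73%). With 3 libraries against 3, an exact test of a single gene cannot go below p = 0.10, so these groups that do not overlap are a description. The count of 20 depended on which libraries were fitted: with edgeR on T1 and T2 alone it was 0 (2058 genes at an unadjusted p under 0.05), without any 1 library of T2 or of the input it was 0 (3307 to 4187 genes), and without T1 replicate 1, 2 or 3 it was 2043, 534 and 216. With the replicate number as a block over all 9 libraries it was 0 (3272 genes at an unadjusted p under 0.05), so none of the calls below held there. With that block on T1 and T2 alone it was 19, all lower at T2, and 2 of the 19 were among the 20. DESeq2 called 3518 genes, with all 20 among them. Limma's voom with sample weights called 35, all lower at T2, and 2 of the 35 were among the 20. No rise below was called by voom or by the block on T1 and T2 alone. The calls below are therefore those of the 9-library fit, and their direction, level and spread are given beside them.

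Most of the genes that rose after adjustment, 15 of the 18, were RNAs present in the input and at T2 and under 1 CPM in every T1 library. The RNA of XBXL10_1g33107, which has no symbol, had 0.221, 0.199 and 0.322 CPM in T1 replicates 1 to 3 and 32.5, 35.6 and 41.6 CPM in T2 replicates 1 to 3, with 49.8 to 50.7 CPM in the input. The groups were far apart and the T2 libraries were close to each other. Its log2 fold change was 7.21 (SE 0.73, adjusted p = 0.00726). XBXL10_1g7489 had 0.193, 0.228 and 0.429 CPM at T1 and 43.0, 37.4 and 43.0 CPM at T2, a log2 fold change of 7.20 (SE 0.69, adjusted p = 0.00726). XBXL10_1g23935 had 0.414, 0.228 and 0.268 CPM at T1 and 31.1, 27.0 and 28.8 CPM at T2, a log2 fold change of 6.56 (SE 0.66, adjusted p = 0.00726). Neither had a T1 library near its T2 libraries. These 3 had the lowest adjusted p, and the other 17 had 0.0438 or 0.0472.

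Only 2 of the 18 had a symbol. The RNA of tmem131.S, for a membrane protein that is needed for collagen secretion in worms and human cells, comes from chromosome 2S, from 104017857 to 104110706 in the assembly Xenopus_laevis_v10.1. It had 0.110, 0.114 and 0.268 CPM at T1, 13 reads in all, and 27.5, 21.8 and 18.09 CPM at T2, which is close to its 19.9 to 34.3 CPM in the input. It rose 137-fold (log2 7.11, SE 1.07, adjusted p = 0.0438). The RNA of lrriq1.L, for a protein with leucine-rich repeats and IQ motifs, comes from chromosome 3L, from 60798275 to 60885134. It had 0.524, 0.256 and 0.268 CPM at T1 and 25.7, 29.4 and 14.3 CPM at T2, and rose 66.2-fold (log2 6.03, SE 0.90, adjusted p = 0.0438). For both genes every T2 library was far above every T1 library.

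XBXL10_1g25547 was the single gene of the 18 that was well represented at T1. It had 43.5, 17.2 and 48.1 CPM at T1, a mean of 36.2 ± 16.7 (SD, n = 3), and 277, 298 and 184 CPM at T2, a mean of 253 ± 60.6 (SD, n = 3), a 6.98-fold rise (log2 2.80, SE 0.39, adjusted p = 0.0438). Its input level was higher still, 448 to 619 CPM. The remaining 12 genes that rose, all without a symbol, had log2 fold changes of 5.74 to 8.67 and at most 2.18 CPM in any T1 library.

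The 2 genes that fell were already prominent in the early filtrate. XBXL10_1g37032 had 208, 221 and 284 CPM at T1 and 18.4, 30.4 and 44.3 CPM at T2, against 5.92 to 11.8 CPM in the input. Its log2 fold change was -2.94 (SE 0.43, adjusted p = 0.0438), a 7.66-fold difference between the means. XBXL10_1g29557 had 194, 554 and 591 CPM at T1 and 54.7, 79.6 and 67.3 CPM at T2, with 37.3 to 47.3 CPM in the input, a log2 fold change of -2.73 (SE 0.40, adjusted p = 0.0438). In both, the T2 level lay between the input and T1.

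A level under 1 CPM in a T1 library beside 10 CPM or more in every T2 library was common. Most of these genes were so in 1 T1 library only, and fewer in 2 or in all 3. Of 10390 genes with 10 CPM or more in every T2 library, 7728 (74.4%) had at least 1 CPM in all T1 libraries. There were 2146 (20.7%) under 1 CPM in 1 T1 library, 464 (4.47%) in 2 and 52 in all 3. By library, 316 of these genes were under 1 CPM in T1 replicate 1, 666 in replicate 2 and 2248 in replicate 3. The mirror set was small: of 7635 genes with 10 CPM or more in every T1 library, 7540 (98.8%) had at least 1 CPM in all T2 libraries, and 36, 22 and 55 were under 1 CPM in T2 replicates 1, 2 and 3. A level under 1 CPM in a single T1 library was therefore far more frequent than in all of them. The T1 libraries were also shallower than those of T2. Within T1, replicate 2 had more reads on genes than replicate 1 (37265313 against 36028231) and more such genes (666 against 316). The part of depth in the result was not tested.

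**Figure D2:**
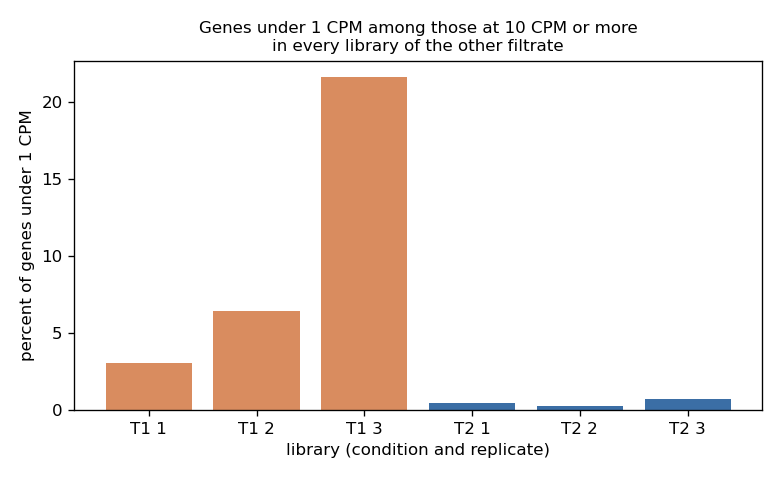
Percentage of genes under 1 CPM in each filtrate library (vertical axis), among genes with 10 CPM or more in every library of the other filtrate. The T1 libraries (316, 666 and 2248 of 10390 genes) stand above the T2 libraries (36, 22 and 55 of 7635 genes), and T1 replicate 3 is the highest.

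The 52 genes under 1 CPM in all T1 libraries had log2 fold changes of 5.47 to 9.31, and all had an unadjusted p under 0.05, which follows from how they were picked. Their mean input level was 5.80 to 71.2 CPM (median 18.0). The rule of 10 CPM or more in every T2 library left little room for rare RNAs in the set. The set holds 15 of the 18 genes that rose after adjustment. Only 3 of its genes have a symbol: tmem131.S, lrriq1.L and pclo.L. The pclo.L RNA, for the very large presynaptic scaffold protein piccolo, had 0.772, 0.0285 and 0.0536 CPM at T1 and 27.9, 20.3 and 13.7 CPM at T2, close to its 27.1 to 45.8 CPM in the input (log2 6.14, SE 1.36, adjusted p = 0.0807). The 2 genes of the mirror set, XBXL10_1g43671 and XBXL10_1g17110, had log2 fold changes of -6.42 and -9.47 (adjusted p = 0.0905 and 0.0647). They had 15.9 to 62.9 CPM at T1 and 0.638 CPM or less at T2.

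Among the genes with a symbol, an unadjusted p under 0.05, a mean of at least 5 CPM at T2 and libraries that did not overlap, the 11 highest log2 fold changes, 7.85 to 9.60, belonged to RNAs with no more than 7 reads over the T1 libraries, and none passed the adjusted test. They include regulators of signalling and transcription. The RNA of dusp1.L, for a phosphatase that switches off MAP kinases, had 1 read at T1 (0.0276, 0 and 0 CPM) and 1.83, 8.81 and 18.05 CPM at T2. The ratio of reads was 740, with a 95% counting interval of 133 to 29257 (adjusted p = 0.0820). The T2 libraries were all above T1, but they differed among themselves almost 10 times. The RNA of elf2.L, for an ETS transcription factor, had 1 read at T1 and 4.63, 9.93 and 4.02 CPM at T2, a ratio of 578 (interval 104 to 22849, adjusted p = 0.0807). These intervals cover counting error only, and reads are not independent molecules.

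The steadier of these genes had a few reads in each T1 library. The RNA of tcf12.L, for the basic helix-loop-helix factor HEB, had 0.0552, 0.0570 and 0.0536 CPM at T1 and 8.74, 17.2 and 13.7 CPM at T2 (log2 7.85, SE 1.53, adjusted p = 0.0640). The RNA of sema6d.L, for a transmembrane semaphorin that guides axons, had 0.0552, 0.114 and 0.0536 CPM at T1 and 30.8, 37.1 and 6.15 CPM at T2 (log2 8.32, SE 1.33, adjusted p = 0.0581). The RNA of fuca1.S, for the lysosomal fucosidase, had 3 reads at T1 and 9.81, 14.7 and 6.10 CPM at T2, a ratio of 321 (interval 110 to 1559, adjusted p = 0.0640). For all 3 the input level was of the same order as T2, 5.64 to 24.4 CPM. The RNAs of mtfmt.L, the mitochondrial methionyl-tRNA formyltransferase, and arhgap25.L, a GTPase-activating protein, were carried by some of the T2 libraries only: mtfmt.L had 4.29, 12.3 and 0.0333 CPM and arhgap25.L 17.5, 0.0649 and 5.52 CPM (adjusted p = 0.117 and 0.197). The other 4 were rnf14.1.L (a ubiquitin ligase), borcs5.L (a subunit of the complex that positions lysosomes), znf827.L (a zinc finger protein) and sgcg.S (gamma-sarcoglycan), with adjusted p of 0.0858 to 0.0894.

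The 12 lowest log2 fold changes were smaller, -2.15 to -5.39, and came from well-counted RNAs of genes that span 3895 to 16952 bases. None passed the adjusted test. The RNA of rps3.S, which encodes a small-subunit ribosomal protein, had 139, 87.3 and 307 CPM at T1 and 21.3, 39.4 and 59.2 CPM at T2 (log2 -2.15, SE 0.56, adjusted p = 0.0905). That of rps14.L, of the same subunit, had 139, 73.2 and 287 CPM at T1 and 12.1, 53.7 and 44.7 CPM at T2 (log2 -2.18, SE 0.66, adjusted p = 0.117). The RNA of cox5a.L, a subunit of cytochrome c oxidase, had 66.1, 168 and 257 CPM at T1 and 25.3, 53.5 and 15.3 CPM at T2 (log2 -2.38, SE 0.62, adjusted p = 0.0905). On average the input was lower again for all 3, at 6.46 to 16.6 CPM, and the highest T1 library was replicate 3.

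The others had various roles. The RNA of tspo.L, for the translocator protein of the outer mitochondrial membrane, had 51.0, 20.9 and 182 CPM at T1 and 1.72, 13.8 and 15.9 CPM at T2 (log2 -3.01, SE 1.01, adjusted p = 0.142). That of trappc2.S, for a subunit of the TRAPP tethering complexes, had 25.9, 32.5 and 28.1 CPM at T1 and 5.83, 6.65 and 6.44 CPM at T2 (log2 -2.19, SE 0.84, adjusted p = 0.172), the tightest libraries of the set. That of tmem230.L had 25.5, 139 and 44.4 CPM at T1 and 14.0, 9.78 and 6.45 CPM at T2 (log2 -2.79, SE 0.75, adjusted p = 0.0944). The largest difference was that of bdh2.L, for a cytosolic short-chain dehydrogenase, with 12.7, 37.2 and 74.8 CPM at T1 and 0.179, 2.705 and 0.0834 CPM at T2 (log2 -5.39, SE 1.54, adjusted p = 0.106). The remaining 5 were lman2.L (a cargo lectin between the endoplasmic reticulum and the Golgi), btg1.L (an antiproliferative partner of the CCR4-NOT deadenylase), ppcdc.L (an enzyme of coenzyme A synthesis), pyroxd1.L (an oxidoreductase) and c15orf61.L, with adjusted p of 0.0963 to 0.202. None of these 23 genes changed direction with the other scalings and filters or with a T1 or T2 library left out. They were picked for libraries that do not overlap, so leaving 1 out could hardly reverse them, and this is no test of their direction.

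**Figure D3:**
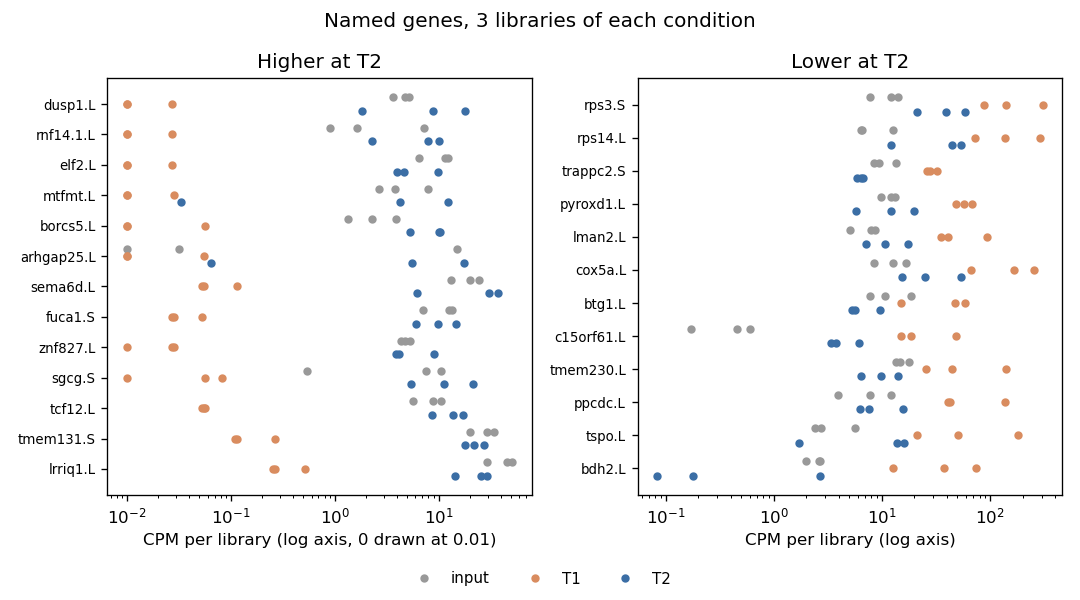
CPM in each library (horizontal log axis; in the left panel 0 is drawn at 0.01) for the 11 named genes highest at T2 with tmem131.S and lrriq1.L (left) and the 12 lowest at T2 (right), with input in grey, T1 in orange and T2 in blue. On the left the T1 libraries sit below 1 CPM while most T2 libraries lie near the input (mtfmt.L and arhgap25.L each have a T2 library under 0.1), and on the right the T1 libraries are above T2, with the input mostly nearer to T2 than to T1.

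Symbols were given for 1593 of the tested genes, and 25 lists of them by role were read against all genes tested, whose median was 0.09. Of all list members, tmem131.S alone passed the adjusted test, so the differences that follow are levels and medians, not calls. A count or percentage of genes whose libraries do not overlap is to be read against 13.2% above and 7.73% below among all genes.

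Lists of ribosomal proteins and of respiratory chain subunits had the lowest medians. All 13 cytosolic ribosomal proteins, which form the large and small subunits, had negative log2 fold changes (-0.80 to -2.18, median -1.72). In 8 of the 13 the T2 libraries lay below all T1 libraries, and 8 had an unadjusted p under 0.05. The summed level was 1202, 1358 and 3034 CPM at T1 and 427, 578 and 954 CPM at T2, so the groups did not overlap, and in the input it was 210 to 292 CPM. Without T1 replicate 3 the median was -0.97. The most even of them was rpl4.L, of the large subunit, with 233, 240 and 288 CPM at T1 and 121, 123 and 125 CPM at T2 (log2 -1.05, SE 0.24). Others were rps16.L (-1.76), rpl34.L (-1.88) and rps26.S (-2.01), each with libraries that did not overlap. The RNAs for ribosomal proteins belong to the class with a 5' terminal oligopyrimidine tract, whose translation is held back in the early frog embryo.

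The 7 respiratory chain subunits were all lower at T2 as well (median -1.97, and -1.34 without T1 replicate 3), and 3 of them did so with libraries that did not overlap. Their summed level was 298, 468 and 910 CPM at T1, 87.6, 178 and 185 CPM at T2 and 39.5 to 63.0 CPM in the input. The RNA of ndufa9.L, of complex I, had 97.6, 135 and 241 CPM at T1 and 31.5, 24.8 and 67.5 CPM at T2 (log2 -1.94, SE 0.51). The 7 subunits of ATP synthase and of the vacuolar proton pump were lower by a median of -1.09 (-0.83 without T1 replicate 3), 4 with an unadjusted p under 0.05, though in each of the 7 the libraries overlapped. The most abundant RNA in the list, atp5f1b.S for the catalytic beta subunit, had 402, 695 and 800 CPM at T1 and 249, 428 and 311 CPM at T2 (log2 -0.94, SE 0.29).

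Other mitochondrial RNAs were less uniform. Of 27 genes for import, metabolism and carriers, 20 were lower (median -0.56, and -0.30 without T1 replicate 3), 3 without overlap: slc25a3.L, the phosphate carrier (1008, 1547 and 2116 CPM at T1, 547, 750 and 711 CPM at T2, log2 -1.22, SE 0.29), mdh2.S, malate dehydrogenase (-1.21), and acat1.S, the thiolase of ketone metabolism (-1.46). An opposite case was slc25a37.L, the iron carrier mitoferrin, with 0.0827, 0.0570 and 0.0536 CPM at T1 and 5.84, 4.29 and 4.45 CPM at T2 (log2 6.18, SE 1.66, adjusted p = 0.0944). Of 10 mitochondrial ribosomal proteins, 7 were lower, mrpl30.S without overlap (-1.70). Their median was -0.64, and -0.90 to -0.39 with a T1 or T2 library left out.

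Genes for RNA splicing leaned lower and those for cytoplasmic RNA granules were mixed. Of 30 spliceosome and hnRNP proteins, 24 were lower at T2 (median -0.67, and -0.42 without T1 replicate 3), with the clearest values for usp39.L, a factor of the tri-snRNP that also carries an inactive deubiquitinase fold (248, 218 and 221 CPM at T1, 107, 83.7 and 100 CPM at T2, log2 -1.24, SE 0.24), and hnrnpr.S (-1.07). Of 23 genes for stress granule and P-body proteins, 15 were higher (median 0.20), 5 without overlap above and 1 below. The RNA of g3bp2.L, for a core protein of stress granules, had 52.5, 88.6 and 73.4 CPM at T1 and 195, 169 and 185 CPM at T2 (log2 1.36, SE 0.27), and its relative g3bp1.L had 48.0, 25.9 and 114 CPM at T1 and 31.2, 57.6 and 50.2 CPM at T2 (log2 -0.43, SE 0.55), with libraries that overlapped. The RNA of pnrc2.S, a partner of the decapping complex, had 265, 149 and 81.5 CPM at T1 and 498, 386 and 333 CPM at T2 (log2 1.30, SE 0.37), and cnot8.L, a deadenylase subunit, was higher by 1.06. Against them, edc3.L, an enhancer of decapping, was lower by 0.89 (log2 -0.89, SE 0.36). Of 12 translation factors, 6 were lower and 6 higher (median -0.04), and eif4h.S, a cofactor of the helicase eIF4A, was lower without overlap: it had 1017, 975 and 1101 CPM at T1 and 552, 601 and 686 CPM at T2 (log2 -0.75, SE 0.19).

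Cell cycle RNAs were near equal shares, and cyclin A2 stood out. Of 39 genes for cyclins, mitotic kinases and the spindle, 22 were higher and 17 lower (median 0.15). The RNA of ccna2.L, cyclin A2, had 850, 917 and 910 CPM at T1 and 398, 466 and 273 CPM at T2 (log2 -1.24, SE 0.23), against 388 to 413 CPM in the input. The T1 libraries were nearly equal and far from T2. Cyclin A1, ccna1.S, had 528, 801 and 374 CPM at T1 and 532, 551 and 429 CPM at T2 (log2 -0.17, SE 0.29). The kinetochore protein cenpc.L was higher, with 53.6, 19.7 and 50.8 CPM at T1 and 132, 140 and 58.1 CPM at T2 (log2 1.41, SE 0.45). Of 23 genes for DNA replication and repair, 12 were higher (median 0.05): ticrr.L, which starts replication origins, had 186, 140 and 110 CPM at T1 and 339, 284 and 270 CPM at T2 (log2 1.03, SE 0.24), and pcna.L, the sliding clamp, had 738, 1139 and 1900 CPM at T1 and 465, 459 and 740 CPM at T2 (log2 -1.18, SE 0.33), with T1 replicate 1 and T2 replicate 3 nearly equal.

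The egg and germ-line RNAs were close to even. Of the 15, 10 were lower and 5 higher (median -0.24), 2 without overlap above and 1 below. The RNA of gdf9.L, an oocyte growth factor, had 125, 175 and 84.3 CPM at T1 and 285, 191 and 435 CPM at T2 (log2 1.24, SE 0.36). That of npm2.L, the egg histone chaperone nucleoplasmin, had 186, 112 and 267 CPM at T1 and 73.3, 88.5 and 123 CPM at T2 (log2 -0.99, SE 0.39), and that of cpeb1.L, which controls cytoplasmic polyadenylation, had 605, 847 and 432 CPM at T1 and 600, 538 and 467 CPM at T2 (log2 -0.23, SE 0.26).

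The list of very large proteins had most of its members higher at T2, and lists of embryonic regulators were closer to all genes. Of 28 giant cytoskeletal, motor and scaffold proteins, 25 were higher, 8 without overlap. Their median was 0.66, and 0.44 to 0.95 with a T1 or T2 library left out. The RNA of dock4.L, an exchange factor for Rac, had 44.3, 36.7 and 12.5 CPM at T1 and 112, 94.5 and 92.7 CPM at T2 (log2 1.68, SE 0.42), with 220 to 283 CPM in the input. The member that was lower without overlap was dmd.1.S, dystrophin, with 133, 93.2 and 90.0 CPM at T1 and 35.1, 39.8 and 35.8 CPM at T2 (log2 -1.51, SE 0.38), close to its input of 30.5 to 34.4 CPM. Of 45 genes for developmental signals, receptors and transducers, 27 were higher (median 0.44), but the median was 0.0151 without T2 replicate 1, 0.21 without T2 replicate 3 and 0.0971 among genes at a mean of 1 CPM. All T2 libraries lay above T1 in 7 of the 45 and below in none, against 13.2% above and 7.73% below among all genes. In that list smo.L, the transducer of Hedgehog signals, had 0.579, 15.5 and 0.483 CPM at T1 and 48.7, 43.1 and 70.7 CPM at T2 (log2 3.29, SE 1.15). Of 39 transcription factors of development, 20 were higher and 17 lower, near the split of all genes, with a median of 0.23 that was -0.07 at a mean of 1 CPM, and 7 lay above without overlap, among them tcf7l1.L, which mediates Wnt signals (31.6, 37.5 and 16.8 CPM at T1, 97.6, 60.0 and 67.0 CPM at T2, log2 1.39, SE 0.38). The medians of both of these lists shrink once genes with no T1 read are set at the bound that 3 reads over the T1 libraries allow, to 0.11 for the signals and 0.00 for the factors.

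The largest list median was that of extracellular matrix, adhesion and large secreted proteins, 5.20 over 31 genes, 23 of them higher. It came from rare RNAs: 16 of the 31 had log2 fold changes over 5, and 6 had no read at T1. In 6 of the 31 all T2 libraries lay above T1, against 13.2% of all genes tested. With the genes of no T1 read at their bound the median was 4.14, and over the alternative settings it ran from 0.95 to 5.82. The summed levels of the list overlapped, with 118 to 248 CPM at T1 and 156 to 241 CPM at T2. The RNA of postn.S, the matrix protein periostin, had no read at T1 and 0.119, 2.00 and 4.62 CPM at T2. Its pooled reads were at least 56.2-fold higher by that bound (adjusted p = 0.145). That of tinagl1.S, a basement membrane protein, had no read at T1 and 1.83, 1.61 and 0 CPM at T2, so T2 replicate 3 was like T1. Its pooled reads were at least 39.5-fold higher (adjusted p = 0.194). Such bounds cover counting error only and leave out the spread between libraries. That of celsr1.L, a large cadherin of planar polarity, had 0.0276, 0.0285 and 0.0536 CPM at T1 and 0.805, 4.42 and 2.87 CPM at T2 (log2 6.17, SE 1.89).

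Protein turnover genes were in 3 lists. Of 45 ubiquitin conjugating enzymes and ligases, 29 were higher (median 0.37), 10 without overlap above and 2 below. The ligase ube3a.S had 29.2, 16.2 and 2.09 CPM at T1 and 79.5, 44.4 and 64.5 CPM at T2 (log2 1.98, SE 0.74). The RNA of herc6.L, of the HERC family, had no read at T1 and 4.03, 5.72 and 0.0333 CPM at T2. Its pooled reads were at least 111.0-fold higher, a bound for counting error only (adjusted p = 0.118). Against them, rnf44.L was lower by a log2 of -1.25 without overlap. Of 15 genes listed as deubiquitinating enzymes, 12 were higher (median 0.63, and 1.74 without T1 replicate 1), 2 without overlap above and 1 below. The 1 below was usp39.L, whose deubiquitinase fold is inactive and which was also read among the spliceosome proteins. Of 8 subunits of the proteasome, the chaperonin, prefoldin and the COP9 complex, 6 were lower (median -0.48, and -0.19 without T1 replicate 3), 1 without overlap above and 1 below. The RNA of pfdn1.L, of prefoldin, had 1 read at T1 and 3.27, 0.314 and 11.3 CPM at T2, a ratio of 368 (interval 65.9 to 14558). That of cct2.L, of the chaperonin, was lower (162, 155 and 207 CPM at T1, 47.6, 83.3 and 92.8 CPM at T2, log2 -1.23, SE 0.34).

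The patchy makeup of the T1 libraries set the extremes of many lists, where a single library carried an RNA. The RNA of ndufa5.L, of complex I, had 0, 0.0285 and 46.9 CPM at T1 and 0.507, 5.17 and 0.0167 CPM at T2, a log2 fold change of -3.04 that was 6.90 without T1 replicate 3. That of cnot11.S, of the CCR4-NOT deadenylase, had 0.110, 55.0 and 0.268 CPM at T1 and 5.69, 2.89 and 7.24 CPM at T2, -1.81 in all and 4.75 without T1 replicate 2. That of rab30.S, a Golgi GTPase, had 13.6, 0.0285 and 0 CPM at T1 and 2.02, 2.44 and 0.0333 CPM at T2, -1.60 in all and 6.38 without T1 replicate 1. For such RNAs the direction rested on 1 library. The same held for tipin.L (replication fork protection), nr4a1.S (a nuclear receptor), tsfm.S (a mitochondrial elongation factor) and fbln1.L (fibulin, a matrix protein), and of 143 genes named under the rule for this report 22 changed direction in some setting.

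**Figure D4:**
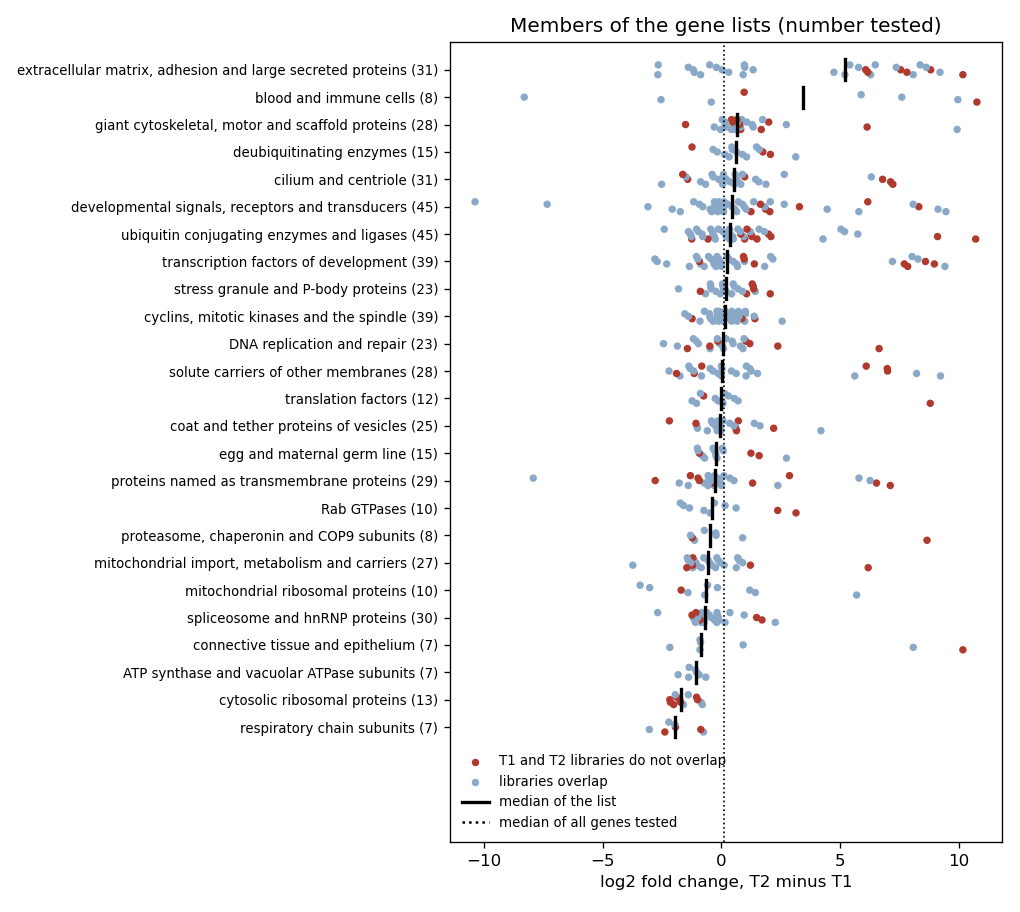
Log2 fold change, T2 minus T1 (horizontal axis), of each member of the 25 gene lists, with the number tested in brackets. Red points are genes whose T1 and T2 libraries do not overlap, blue points are the others, black bars are list medians and the dotted line is the median of all genes tested (0.09), and the list medians run from -1.97 for the respiratory chain to 5.20 for the extracellular matrix, whose points over 5 rest on few T1 reads.

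RNA classes other than mRNA were given for few genes. As for the lists, counts without overlap are to be read against 13.2% above and 7.73% below among all genes. The 1890 mRNAs had a median of 0.11. Of 42 small nucleolar RNAs, which guide modification of ribosomal RNA, 35 were lower at T2 (median -1.86), 5 without overlap below and 0 above, and 7 of the 35 had an unadjusted p under 0.05. Their summed level was 2042, 1279 and 5543 CPM at T1, 385, 296 and 1785 CPM at T2 and 234 to 338 CPM in the input, so T1 replicate 2 and T2 replicate 3 overlapped. Much of it was XBXL10_1g12477, with 732, 412 and 2250 CPM at T1 and 100, 152 and 690 CPM at T2. The lowest was XBXL10_1g11105, with 96.5, 32.3 and 248 CPM at T1 and 4.21, 5.72 and 0.183 CPM at T2 (log2 -5.22). The 3 ribosomal RNA genes in the table had a median of -3.51, and their level after rRNA depletion was 38.0 to 315 CPM at T1 and 2.88 to 24.6 CPM at T2. The 52 long noncoding RNAs were evenly split, 25 higher and 27 lower (median -0.56), 5 without overlap above and 6 below.

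Longer genes had higher fold changes than shorter genes. Protein lengths were not used, and the span of the gene on the assembly, from start to end with introns, was taken for 1874 of the 1890 mRNAs (99.2%). In quintiles of span, the shortest (489 to 10669 bases) had a median log2 fold change of -0.50, the next -0.07, 0.22 and 0.21, and the longest (59768 to 1149300 bases) 0.52. Genes with T2 libraries below T1 made up 11.7% of the shortest quintile and 2.40% of the longest, and those with T2 above T1 8.80% and 17.3%. Among the 1260 mRNAs at 10 CPM or more in the input, the medians ran the same way, from -0.40 to 0.45. Across genes, which are not independent and share the libraries, Spearman's correlation of span and log2 fold change was 0.198, and 0.229 among the 1260. By single pairs of libraries it ran from 0.0366 to 0.236, positive in all 9 pairs and lowest for T2 replicate 3 against T1 replicate 1.

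**Figure D5:**
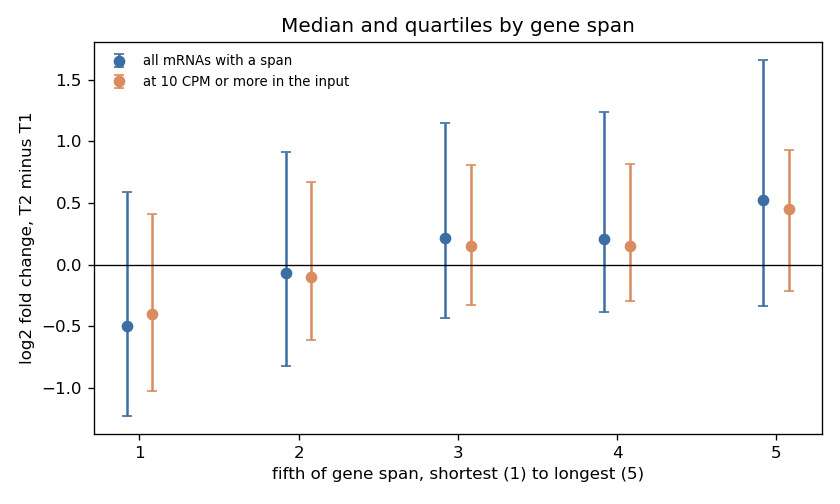
Median log2 fold change, T2 minus T1 (vertical axis; bars run from the lower to the upper quartile), by quintile of gene span from shortest (1) to longest (5), for 1874 mRNAs (blue) and the 1260 at 10 CPM or more in the input (orange). The median passes from -0.50 in the shortest to 0.52 in the longest quintile, and the quartile ranges overlap throughout.

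The spread of fold changes was narrower for RNAs that were more abundant in the input. By quintiles of the mean input level, the share of genes with a log2 fold change over 5 was 45.7% in the rarest (up to 2.31 CPM), then 21.5%, 4.67%, 0.670% and 0.0993% in the most abundant (67.2 CPM and more). The medians were 3.10, -0.02, -0.18, -0.04 and 0.21. Of all 2924 genes over 5, 2459 had no more than 3 reads over the T1 libraries together. Fold changes against so few reads are no measure of size. How far the 45.7% and the median of 3.10 follow from such low T1 counts was not tested. By their medians, the 4 quintiles above the rarest had similar centres in the early and late filtrates. The most abundant quintile had 17.2% of its genes with T2 above T1 and 8.06% below.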

How the data were processed

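RNA was extracted from the input, T1 and T2 samples, depleted of ribosomal RNA and sequenced in pairs, with 3 replicates each. Per the labels, the authors trimmed reads with Trim Galore, aligned them with STAR and used DESeq2, and the methods name the Xenopus_laevis_v10.1 genome. The authors deposited raw counts of reads per gene, with no normalization, and a second table of normalized signal (counts divided by size factors). The 4 rows that name no gene were left out, and 0 columns belong to other samples. They held 19.2 to 31.7% of the filtrate reads as outside genes, 1.98 to 6.76% as mapped at several places (these include reads shared by .L and .S copies, which are on no gene) and 7.04 to 20.1% as unmapped. The library kit keeps strand, but the strand setting of the counting is not given in the sources used here, so reads of overlapping or antisense genes may be shared.

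Counts were fitted with edgeR 4.0.16 in R 4.3.3 (TMM, filterByExpr with a minimum count of 10 and a minimum total of 15, quasi-likelihood F test, adjusted p under 0.05, two-sided) on all 9 libraries, with condition as the sole term, 6 residual degrees of freedom and the contrast T2 minus T1. The study's methods describe filtrate changes against input after a log transformation and no test per gene for T2 against T1. P-values rest on a spread estimated over all 9 libraries, including the input. The input varied less (coefficient of variation 0.577) than T1 (1.49) and T2 (1.06), the groups compared. Alternatives used DESeq2 1.42.0, limma 3.58.1, other scalings and filters, other sets of libraries and the replicate number as a block. Values of the normalized table divided into whole reads for 100% of values, within 0.01 reads. These reads differed from the raw counts in 3317 of the tested genes (16.5%), so they served as an alternative only. Log2(CPM + 0.5) was used for single pairs of libraries. The script was tested on simulated counts.

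Symbols and RNA classes come from the source sheet of the study in the part in hand, 1999 entries, of which 1062 lie on 3L, 639 lie on 2S and 184 lie on 1L, so that named genes are a sample by position. Gene spans come from RefSeq's gene table of the same assembly. They replaced protein length, which was planned. Genes named were all that passed the adjusted test; the 12 highest and 12 lowest with a symbol, libraries that do not overlap, an unadjusted p under 0.05 and a mean of 5 CPM or more where higher; and the 2 highest and 2 lowest of each list, with the egg markers. Some of these are not reported here. Other list members in the text were chosen after their values were seen. The comparison, the lists and the rule were chosen with earlier results of these data known. For genes with 0 reads in a group, folds are bounds at 3 reads over the group, and for 1 to 3 reads exact 95% intervals of the ratio are given. Both use reads pooled over the libraries of a group and leave out the spread between them.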

Additional observations from a re-analysis of the deposited data

Results flagged for a closer look

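Reads that were counted on no gene differed between the filtrates. On average 5.66% of T1 reads and 2.55% of T2 reads mapped at several places, both above every input library (at most 1.85%). Unmapped reads averaged 16.0% at T1, above the input's highest of 7.71%. These reads take no part in the comparison of genes.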

How the results depend on the processing

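The direction of the 20 genes and of the 23 genes named at the extremes did not change with the other scalings and filters. Nor did it change with a T1 or T2 library left out, and other settings were not tabulated for it. In both sets the T1 and T2 libraries do not overlap, in the 23 by the rule that picked them. Leaving 1 library out could thus hardly reverse them. The number of genes called varied with most settings. The count was 91 (83 higher, 8 lower at T2) with library size as the sole scaling, 3 (3 and 0) with scaling by the median of ratios, 80 (49 and 31) with no filter beyond 1 read and 20 (18 and 2) at a mean of 1 CPM. It was 0 with T1 and T2 alone, where 16720 genes passed the filter and the input did not enter the spread (2058 genes at an unadjusted p under 0.05), 3518 (1988 and 1530) with DESeq2 and 35 (0 and 35) with limma's voom and sample quality weights. With a library left out it ran from 0, without T2 replicate 1, 2 or 3 or any input library, to 2043 (0 to 1433 higher, 0 to 610 lower) without T1 replicate 1. The reads recovered from the normalized table, a setting chosen after seeing the data, gave 18. Genes whose libraries did not overlap numbered 3165 to 4703 higher and 1812 to 3035 lower with a library left out, since 2 libraries overlap less readily than 3. The share of genes higher at T2 was 58.6% with library size alone, 49.3% with median-of-ratios size factors, 49.1% with no filter beyond 1 read, 49.2% at a mean of 1 CPM and 49.2 to 56.0% with a T1 or T2 library left out. It was 48.3% with T1 and T2 alone and 49.0% with DESeq2. It was 61.4% and 61.5% with the replicate block (all 9 libraries, and T1 and T2 alone) and 64.3% with voom. The all-gene median moved from 0.09 to 0.28 with library size and to -0.0035 with median-of-ratios factors. It was -0.05 with T1 and T2 alone, -0.02 at a mean of 1 CPM and -0.02 with DESeq2. With the replicate block it was 0.45 and 0.44 (all 9 libraries, and T1 and T2 alone), and with voom 0.56. The sign of the median thus depended on the setting. Of the 25 list medians, 17 kept their sign with the other scalings and filters and with a T1 or T2 library left out. Spearman's correlation with gene span, a measure chosen after seeing the data in place of the planned protein length, which was not run, was 0.162 to 0.215 with a library left out. The cause of these differences was not tested.

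With the replicate number as a block the count was 0 over all 9 libraries (0 higher, 0 lower, 3272 genes at an unadjusted p under 0.05), and 19 over T1 and T2 alone (0 higher, 19 lower). The deviations of same-numbered T1 and T2 samples correlated at 0.0828 to 0.104, and those of other numbers at -0.0586 to -0.0340. A mark of 0.1 in every pair, which was not set in the plan, was not reached, but such a mark cannot decide whether the samples are paired. The main fit has no pairing term because the plan set condition as its sole term, with the block as an alternative. Whether the numbers pair the samples was left undecided. Each T1 sample correlated best with its own number, which is a hint from the data. The methods count 3 biological samples for the 9 libraries, and whether a number marks 1 of them is not given in the sources used here.

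The named genes that changed direction did so when a library was left out, with log2 fold changes of -0.20 to 7.43 for sec24d.L, -0.48 to 0.73 for zar1l.S, -0.55 to 1.06 for piwil2.L, -0.42 to 0.30 for ccnb2.L, -0.44 to 0.0080 for cpeb1.L, -0.56 to 0.0186 for mov10l1.L, -0.72 to 0.0317 for wee2.L and -1.80 to 5.03 for usp18.L. They ran from -1.11 to 0.0856 for atp6v1e1.L, -1.10 to 0.26 for cx38.S, -2.74 to 1.65 for cox5b.1.L, -1.99 to 3.01 for tsfm.S, -2.18 to 6.38 for rab30.S, -2.39 to 4.75 for cnot11.S, -2.53 to 0.58 for tipin.L and -3.44 to 6.05 for efcab10.L, and from -10.78 to 4.51 for il17ra.S, -8.29 to 4.75 for fbln1.L, -8.02 to 8.80 for nr4a1.S, -5.96 to 6.90 for ndufa5.L, -9.06 to 2.76 for alox5ap.S and -13.01 to 2.77 for fgf2. Of these, piwil2.L was also at -0.0103 when scaled by the median of ratios and ccnb2.L at 0.0114 with library size alone. None of them passed the adjusted test in those settings.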

Other observations

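Membrane traffic was described by lists that the results above leave out. Of 10 Rab GTPases, switches of vesicle transport, 6 were lower and 4 higher at T2. Their median was -0.39, and 0.01 without T1 replicate 3 and 0.14 without T1 replicate 1. The RNA of rab8b.L had 16.2, 4.90 and 0.375 CPM at T1 and 43.5, 32.1 and 36.0 CPM at T2, a log2 fold change of 2.37 (SE 0.98), and rab20.S was also above in all T2 libraries (log2 3.14). Of 25 coat and tether proteins, 10 were higher (median -0.06, and 0.26 without T1 replicate 3). The clathrin heavy chain cltc.S had 122, 107 and 149 CPM at T1 and 206, 216 and 166 CPM at T2 (log2 0.64, SE 0.25). Of 28 solute carriers of other membranes, 14 were higher (median 0.01), and slc18a2.L, the vesicular monoamine transporter, had 139, 107 and 105 CPM at T1 and 49.98, 56.2 and 52.3 CPM at T2 (log2 -1.15, SE 0.32). Of 31 cilium and centriole genes, 22 were higher (median 0.55, and 0.09 without T1 replicate 3), with saxo2.L lower in every T2 library (73.4, 53.9 and 48.0 CPM at T1, 19.0, 18.2 and 19.4 CPM at T2, log2 -1.63, SE 0.52). None of these genes passed the adjusted test.

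The deposited tables disagree for some genes. For fgf2, a fibroblast growth factor, the raw counts were 0, 0 and 888 reads at T1 and 0, 0 and 2 at T2, a fitted log2 fold change of -10.38 that rests on 1 library, while the reads recovered from the normalized table were 1515, 591 and 5 at T1 and 3831, 3076 and 1992 at T2. For efcab10.L the raw counts were 1, 1 and 633 at T1 and 1, 192 and 230 at T2, and the normalized table had 0 in all 6 libraries. Of the named genes, 18 differed in at least 1 of the 9 libraries, some of them only in the input, such as borcs5.L and XBXL10_1g33107. The called gene XBXL10_1g16261 had 1429, 2305 and 2133 reads at T2 in the raw counts and 706, 1663 and 1154 by the normalized table.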
